A study of Mus musculus with 71 samples.

Results

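A set of 8 genes that hold mammalian oocytes in meiotic arrest, release them from it or hold them at the second metaphase were followed across mouse oocytes made in culture and oocytes grown in the animal, namely Gpr3, Adcy3, Npr2, Ccnb1, Cdk1, Cdc25b, Mos and Fbxo43. They were chosen by symbol for their known roles, and all 8 were found among the 15140 genes of the deposited expression table.

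Fully grown oocytes rest in the first meiotic prophase with an intact nucleus, the germinal vesicle (GV). Cyclic AMP made in the oocyte, and cyclic GMP that reaches it from the surrounding granulosa cells, keep the Cdk1–cyclin B kinase inactive. When these signals fall, Cdc25b activates the kinase and the nucleus breaks down, and at the second metaphase (MII) the Mos kinase pathway and the protein encoded by Fbxo43 stop cyclin B from being destroyed until fertilisation.

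RNA was selected by its polyA tail and given as TPM (transcript abundance scaled for gene length and library), so a longer tail and more RNA cannot be told apart. All cells had a C57BL/6 x 129 background. The in vitro oocytes came from stem cells with the reporters Blimp1-Venus and Stella-CFP, whose germ cell-like derivatives were joined with E12.5 gonadal somatic cells of female embryos into reconstituted ovaries, and were sorted for Stella-CFP. Knockouts of Figla, Lhx8, Stat3 and Sub1 were set against wild type on day 11. Knockouts of Ccnk, Dynll1, Ell3, Foxr1, Hes6, Kdm1b, Mef2b, Nobox, Noto, Sfr1, Sohlh1, Tbpl2, Tcf25, Thap7 and Ybx3 were set against wild type on day 13. Directly induced oocyte-like cells (DIOLs) came from the MGA8 stem cell line treated with Shield1, SCF and Y-27632, and were taken on days 1, 3, 5, 7 and 14 as DIOLs.S and on days 5, 10, 15 and 25 as DIOLs. The labels do not say what the S stands for. Matured DIOLs (MII DIOL) were grown with gonadal somatic cells into follicles and matured in vitro, so they differ from DIOLs in culture as well as in stage. GV oocytes from animals with the 2 reporters were labelled comp-GV and incomp-GV, and their columns also carry the ages of 3 and 2 weeks. GV groups had 3 libraries and all others 2, and nothing says that these came from separate cultures or animals. The p-values therefore measure a spread between libraries that may be technical. For each gene that spread was pooled over all groups of a fit, so it is not that of the compared libraries alone.

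Of the 19 targeted genes 12 were in the table, and 11 of those were lower in every library of their own knockout than in wild type. The exception was Ccnk, at 171 TPM in the libraries labelled Ccnk knockout and 168 TPM in wild type. Among the 11 the change of log2(TPM + 1) was smaller than 1 for Sub1 (-0.49), Thap7 (-0.75) and Sfr1 (-0.92). Sub1 averaged 330 TPM in its knockout and 464 TPM in wild type. For Ell3 (-1.54) the adjusted p was 0.074 (limma). The other 7 targets, Figla, Foxr1, Mef2b, Nobox, Noto, Tcf25 and Ybx3, could not be checked in this way. The oocyte markers, of which 7 of 12 were in the table, summed to 57000 to 58300 TPM in wild type of day 13, 8040 to 8320 TPM in wild type of day 11 and 354 to 401 TPM in DIOLs.S of day 1. The 2 Sohlh1 knockout libraries stood apart from each other (Pearson r of log2(TPM + 1) 0.873, against 0.967 or more in the other groups), and their summed macrophage markers ranged from 36.8 to 3740 TPM.

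Changes are differences of log2(TPM + 1), which understate those of genes with low levels, and a call needed both an absolute log2 change of 1 or more and a limma p, Benjamini-Hochberg adjusted over all genes tested, below 0.05. All 8 genes passed the low-value filter in every fit. In wild type of day 13 over day 11, 5 of the 8 were called, 3 higher and 2 lower, against 22.0% of all genes, with 5.5% higher and 16.5% lower (677 and 2030 genes, and 1154 and 1360 after rescaling libraries by the median of ratios). On day 11, 3 were called in the Figla knockout (28.1% of all genes), 3 in the Lhx8 knockout (21.9%), 4 in the Stat3 knockout (27.3%) and 4 in the Sub1 knockout (22.8%). On day 13, 7 were called in the Sohlh1 knockout (35.7%), 5 in the Nobox knockout (38.5%), 5 in the Dynll1 knockout (48.2%), 4 in the Tbpl2 knockout (29.2%) and 2 in the Ybx3 knockout (17.9%). In day 13 oocytes 2 were also called in the libraries labelled Ccnk knockout (6.14%). Npr2 alone was called in the knockouts of Foxr1 (1.88%), Kdm1b (3.19%), Noto (2.23%), Sfr1 (1.24%) and Thap7 (2.74%). None was called in the knockouts of Ell3 (0.114%), Hes6 (0.593%), Mef2b (1.08%) and Tcf25 (0.504%). These counts of 8 were not tested against the background. The median log2 change of the 8 was 0.24 in wild type of day 13 over day 11 (all genes -0.24), -0.79 in the Nobox knockout (0.52), -0.52 in the Dynll1 knockout (0.69), -1.88 in the Sohlh1 knockout (0.08) and -0.19 in the Tbpl2 knockout (0.36).

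**Figure D1:**
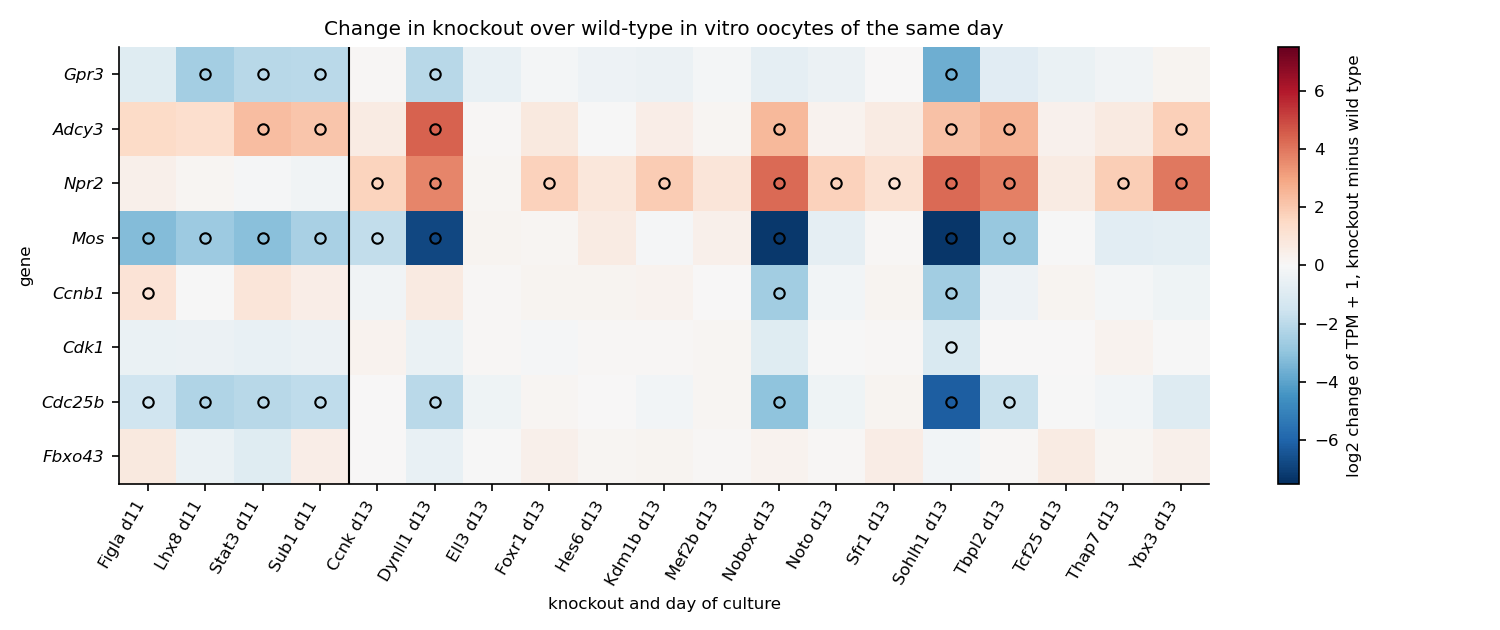
Log2 change of TPM + 1 for the 8 genes (rows) in 19 knockouts over wild type of the same day (columns, day 11 left of the line, day 13 right of it). Red is higher and blue lower in the knockout, and circles mark called changes: Mos was called lower in 9 knockouts, Cdc25b lower in 8, Npr2 higher in 11 and Fbxo43 in none.

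Promoter sequence is shown for 4 of the 8 genes, a pair that moved in opposite directions in the knockouts (Cdc25b lower, Npr2 higher), one that was called in a single knockout (Cdk1), and Gpr3, which separated GV oocytes from the rest. Windows of 250 bases before the start site came from RefSeq (GRCm38.p6), which matched 6 of the 8 genes, with no entry used for Mos and Fbxo43. Capitals mark matches, on either strand, to CANNTG (the E-box of basic helix-loop-helix factors such as Figla and Sohlh1), TAATTA or TAATTG and likewise TGATTG (homeodomain-type sites) and TATAAA (the TATA box). The Cdc25b window is chr2:131186698-131186947, plus strand; that of Npr2 is chr4:43631685-43631934, plus strand; that of Cdk1 is chr10:69352913-69353162, minus strand; that of Gpr3 is chr4:133212537-133212786, minus strand.
Cdc25b: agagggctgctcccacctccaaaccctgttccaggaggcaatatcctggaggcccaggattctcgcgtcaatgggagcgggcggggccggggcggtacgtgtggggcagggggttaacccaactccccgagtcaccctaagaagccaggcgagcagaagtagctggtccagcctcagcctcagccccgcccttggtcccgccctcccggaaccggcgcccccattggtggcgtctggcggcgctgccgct
Npr2: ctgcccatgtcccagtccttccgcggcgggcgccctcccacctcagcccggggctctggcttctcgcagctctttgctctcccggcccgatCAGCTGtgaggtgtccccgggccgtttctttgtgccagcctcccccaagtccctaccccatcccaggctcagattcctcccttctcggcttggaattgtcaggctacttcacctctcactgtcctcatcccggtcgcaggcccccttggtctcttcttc
Cdk1: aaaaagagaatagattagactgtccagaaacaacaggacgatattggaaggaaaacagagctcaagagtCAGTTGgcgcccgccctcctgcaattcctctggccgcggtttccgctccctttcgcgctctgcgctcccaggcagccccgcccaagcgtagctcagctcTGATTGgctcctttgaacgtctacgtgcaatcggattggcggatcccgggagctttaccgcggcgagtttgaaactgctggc
Gpr3: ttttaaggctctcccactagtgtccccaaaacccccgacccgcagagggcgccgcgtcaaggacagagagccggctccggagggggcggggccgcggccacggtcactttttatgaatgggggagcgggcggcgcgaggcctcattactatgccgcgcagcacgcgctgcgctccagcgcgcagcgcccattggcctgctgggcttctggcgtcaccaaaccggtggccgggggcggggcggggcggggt
The Npr2 window holds the single match CAGCTG. The Cdk1 window holds CAGTTG and TGATTG, and the windows of Cdc25b and Gpr3 hold no match. Of 27025 promoter windows of this length 66.0% held CANNTG, 4.9% TAATTA, 7.34% TAATTG, 13.0% TGATTG and 13.0% TATAAA, so an E-box is the common case. A match is a string of letters and not a bound site.

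Gpr3 encodes a constitutively active receptor that drives cyclic AMP synthesis in the oocyte and so keeps it arrested. It lies on chromosome 4 (133209340 to 133212536, minus strand, GRCm38). Gpr3 stood at 256, 234 and 230 TPM in comp-GV oocytes and at 169, 170 and 172 TPM in incomp-GV oocytes. It stood at 43.0 and 40.0 TPM in MII DIOL. In the other 30 groups its mean was 13.9 TPM or less, so that both GV groups and MII DIOL stood above every other group. DIOLs of day 25 had 14.7 and 9.02 TPM, and incomp-GV oocytes had 169 to 172 TPM, a log2 change of -3.77 (SE 0.16, adjusted p = 3.2e-13, limma). DIOLs.S of day 14 had 8.39 and 10.8 TPM, a log2 change of -4.02 against incomp-GV (SE 0.16, adjusted p = 6.9e-14). Wild-type oocytes of day 13 had 12.0 and 11.6 TPM, a log2 change of -3.74 against incomp-GV (SE 0.31, adjusted p = 6.4e-14). All 3 culture-grown sets were thus far below GV oocytes for this receptor. In MII DIOL the level was higher than in DIOLs of day 25 (log2 change 1.76, SE 0.18, adjusted p = 1.6e-08) and lower than in comp-GV oocytes (-2.50, SE 0.16, adjusted p = 1.5e-11).

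Gpr3 overlaps Cd164l2, on the opposite strand, over 406 bases, and how strand entered the counting is not given in the sources used here. Cd164l2 averaged 1640 TPM in DIOLs.S of day 14 and 1620 TPM in incomp-GV oocytes, groups between which Gpr3 differed by the -4.02 above. In the Sohlh1 knockout Cd164l2 averaged 672 TPM while Gpr3 was listed at 0 in both libraries. In the 4 other knockouts where Gpr3 was called lower Cd164l2 was low as well. It averaged 26.8 TPM in the Lhx8, 20.4 TPM in the Stat3 and 71.6 TPM in the Sub1 knockout, against 487 TPM in wild type of day 11, and 19.6 TPM in the Dynll1 knockout, against 835 TPM in wild type of day 13. Cd164l2 was also low where Gpr3 was not called, at 34.6 TPM in the Figla and 49.3 TPM in the Nobox knockout. The part of Cd164l2 reads in the values of Gpr3 was not tested.

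Within the in vitro oocytes Gpr3 was low throughout. On day 11 it was lower in the knockouts of Lhx8 (0.340 and 1.45 TPM, log2 change -2.54, SE 0.41, adjusted p = 1.6e-05), Stat3 (1.33 and 1.67 TPM, log2 change -2.08, SE 0.41, adjusted p = 0.00015) and Sub1 (0.640 and 2.97 TPM, log2 change -2.05, SE 0.41, adjusted p = 0.00023), against 12.7 and 7.10 TPM in wild type. Without replicate 1 of the Sub1 knockout that change was -1.41 (adjusted p = 0.018), and without replicate 2 it was -2.68 (adjusted p = 5.5e-05). On day 13 Gpr3 was lower in the Dynll1 knockout (2.18 and 1.84 TPM, log2 change -2.09, SE 0.41, adjusted p = 8.4e-05), against 12.0 and 11.6 TPM in wild type. In the other 13 day 13 knockouts, Sohlh1 aside, it was not called, although rescaling libraries by the median of ratios gave calls in those of Nobox (-1.20) and Tbpl2 (-1.25). In the Figla knockout the change was -0.92 (adjusted p = 0.07), and it was called without replicate 1 of the knockout (-1.36), without replicate 2 of wild type (-1.30) and after that rescaling (-1.10). In the DIOLs.S course Gpr3 rose by a log2 of 1.44 by day 14 over day 1 (SE 0.18, adjusted p = 4.0e-07), with means of 9.62 TPM on day 14 and 2.90 TPM on day 1.

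Adcy3 encodes an adenylyl cyclase, the enzyme class that makes cyclic AMP, and lies on chromosome 12 (4133103 to 4213525, plus strand). Its levels were low: its highest group mean was 31.7 TPM, in the Dynll1 knockout (33.6 and 29.8 TPM), and it was at 0.350, 0.190 and 0.520 TPM in incomp-GV oocytes. In wild type it stood at 0.360 and 0.760 TPM on day 13 and at 3.96 and 4.51 TPM on day 11, a log2 change of -1.76 (SE 0.61, adjusted p = 0.024). That call was lost when any of the 4 libraries was left out, with adjusted p from 0.055 to 0.13. Adcy3 was higher in the Stat3 knockout on day 11 (26.4 and 24.0 TPM, log2 change 2.32, SE 0.61, adjusted p = 0.0029). On day 13 it was higher in the knockouts of Dynll1 (log2 change 4.40, SE 0.61, adjusted p = 7.1e-07), Nobox (6.71 and 8.00 TPM, log2 change 2.43, adjusted p = 0.0015) and Tbpl2 (5.45 and 11.3 TPM, log2 change 2.52, adjusted p = 0.0013). Sums of some marker lists were higher in these libraries too. Granulosa marker sums were 414 to 451, 904 to 921 and 955 to 1070 TPM in the Dynll1, Nobox and Tbpl2 knockouts. Stromal and endothelial sums were 114 to 115, 176 to 181 and 321 to 335 TPM. Wild type of day 13 had 59.4 to 64.4 and 16.1 to 24.0 TPM. In the Stat3 knockout these sums were 976 to 1010 and 229 to 243 TPM. Wild type of day 11 had 1070 to 1110 and 87.0 to 121 TPM. Of 10 stem cell markers 5 were in the table, and oocytes held them as well, with sums of 165 to 170 TPM in incomp-GV oocytes. There Esrrb averaged 150 TPM and Sox2 5.36 TPM. In the Dynll1, Nobox and Tbpl2 knockouts Sox2 averaged 96.0, 41.2 and 35.8 TPM, against 0.06 TPM in wild type of day 13. Esrrb averaged 37.5, 21.3 and 4.97 TPM in them, against 15.6 TPM in that wild type. In the Stat3 knockout Sox2 averaged 37.6 TPM and Esrrb 4.96 TPM, against 1.69 and 2.2 TPM in wild type of day 11. Stem cell markers summed to 229 to 230 TPM in the Dynll1, 120 to 149 TPM in the Nobox and 74.9 to 92.7 TPM in the Tbpl2 knockout, against 29.7 to 30.1 TPM in wild type of day 13, and to 123 to 127 TPM in the Stat3 knockout, against 50.2 to 58.7 TPM in wild type of day 11. In the Dynll1 knockout dividing cell markers summed to 1450 to 1460 TPM and macrophage markers to 310 to 317 TPM, against 789 to 795 TPM and 68.9 to 86.5 TPM in wild type of day 13. These 2 sums were 690 to 713 TPM and 70.4 to 93.5 TPM in the Nobox knockout. In the Tbpl2 knockout they were 1130 to 1140 TPM and 32.4 to 35.3 TPM. The Stat3 knockout had 1350 to 1370 TPM and 50.6 to 63.8 TPM, against 743 to 751 TPM and 27.9 to 45.2 TPM in wild type of day 11. Dividing cell markers also summed to 912 to 1020 TPM in incomp-GV oocytes. Of that list Top2a averaged 420, 93.4 and 296 TPM in the Dynll1, Nobox and Tbpl2 knockouts. Wild type of day 13 had 9.52 TPM, so in the Nobox knockout Top2a went against the sum. In the Stat3 knockout Top2a averaged 503 TPM, against 43.5 TPM in wild type of day 11. Incomp-GV oocytes had 17.1 TPM. The part of cells with any of these markers in the changes of Adcy3 was not tested. The remaining 3 calls changed with single libraries. In the Sohlh1 knockout (1.01 and 24.8 TPM, log2 change 2.22, adjusted p = 0.0035) the change was 0.38 (adjusted p = 0.48) without replicate 2, and 4.06 (adjusted p = 1.7e-09) without replicate 1. Replicate 2 is also the library with the higher marker sums, at 3740 TPM for macrophage markers (36.8 TPM in replicate 1), 1910 TPM for stromal and endothelial markers (209 TPM) and 133 TPM for stem cell markers (22.9 TPM). In the Sub1 knockout (23.5 and 18.6 TPM, log2 change 2.07, adjusted p = 0.0083) the adjusted p was 0.055 without replicate 1. In the Ybx3 knockout (5.26 and 3.5 TPM, log2 change 1.78, adjusted p = 0.027) it was 0.052 to 0.15 without any 1 of the 4 libraries. Adcy3 shares 20.0% of its transcript sequence with Cenpo, which overlaps it on the other strand, and Cenpo averaged 26.3 TPM in the Dynll1 knockout and 14.2 TPM in wild type of day 13. On day 11 Cenpo averaged 24.5 TPM in the Stat3 and 16.7 TPM in the Sub1 knockout, against 3.63 TPM in wild type. In comp-GV and incomp-GV oocytes it averaged 126 and 90.5 TPM, where Adcy3 was under 1 TPM. The part of Cenpo reads in the values of Adcy3 was not tested.

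Npr2 encodes the receptor for C-type natriuretic peptide, which in mouse follicles sits on granulosa cells and makes the cyclic GMP that passes to the oocyte. It lies on chromosome 4 (43631935 to 43651244, plus strand). In wild type it stood at 1.09 and 1.23 TPM on day 13 and at 30.3 and 40.5 TPM on day 11, a log2 change of -4.06 (SE 0.27, adjusted p = 6.5e-12). Npr2 was called higher in 11 of 15 day 13 knockouts and in none of 4 on day 11. The 5 largest of these changes were in the knockouts of Sohlh1 (31.6 and 49.7 TPM, log2 change 4.24), Nobox (42.0 and 37.3 TPM, 4.23), Ybx3 (30.2 and 34.5 TPM, 3.95), Tbpl2 (32.4 and 24.3 TPM, 3.75) and Dynll1 (28.5 and 25.1 TPM, 3.68), each with an SE of 0.27 and an adjusted p of 2.0e-11 or less. These levels fall within or near those of wild type of day 11. In the other 6 the group means were 3.79 to 7.10 TPM and the log2 changes 1.15 to 1.91. The smallest of them, in the Sfr1 knockout (3.78 and 3.81 TPM, adjusted p = 0.015), was lost without any 1 of the 4 libraries (adjusted p 0.074 to 0.12). At a pseudocount of 0.1 Npr2 was also called in the Hes6 (1.22) and Mef2b (1.27) knockouts. Npr2 overlaps Gm12473 on the opposite strand over 9599 bases.

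In bulk samples fewer cells of a type and less RNA per cell cannot be told apart. Granulosa and gonadal somatic markers moved with Npr2 in wild type and, in part, in the day 13 knockouts. Of 21 such markers 18 were in the table. Their summed level was 59.4 to 64.4 TPM in wild type of day 13 and 1070 to 1110 TPM in wild type of day 11, and 15 of the 17 tested were called lower on day 13. In the 11 day 13 knockouts where Npr2 was called higher the sum was 198 to 1440 TPM. In the 4 where it was not called, those of Ell3, Tcf25, Mef2b and Hes6, it was 73.2 to 166 TPM. Among the 11 the level of Npr2 did not always follow the sum. In the Sohlh1 knockout the sum was 208 to 301 TPM and Npr2 averaged 40.7 TPM. In the Kdm1b knockout the sum was 351 to 360 TPM and Npr2 averaged 7.10 TPM. Of the defining markers Fshr was at 0 in wild type of day 11 and in the Sohlh1, Nobox, Tbpl2, Dynll1 and Ybx3 knockouts, and Inhba, Fst, Hsd17b1, Nr5a2 and Krt19 were also at 0 in the Sohlh1 knockout. Macrophage markers summed to 3190 to 3280 TPM in the Sub1, 478 to 486 TPM in the Figla and 409 to 457 TPM in the Lhx8 knockout, against 27.9 to 45.2 TPM in wild type of day 11. The part of any of these cells in the changes of the 8 genes was not tested.

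**Figure D2:**
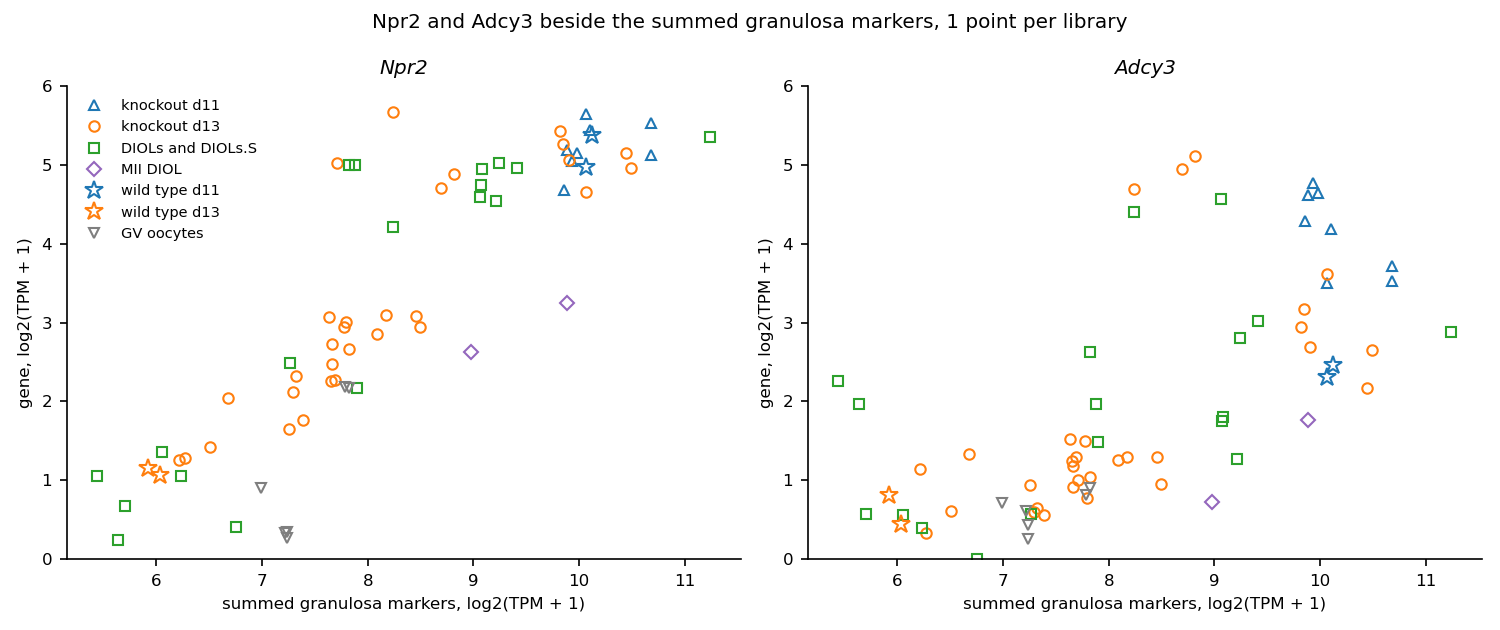
Level of Npr2 (left) and Adcy3 (right) against the summed granulosa markers, both as log2(TPM + 1), with 1 point for each of 68 libraries. For Npr2, wild-type libraries of day 13 lie towards the lower left and those of day 11 at the upper right, while MII DIOL has a high marker sum with 5.15 and 8.53 TPM of Npr2.

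Npr2 also fell in both DIOL courses, at day 14 in DIOLs.S and from day 10 in DIOLs. It was at 23.2 and 17.6 TPM on day 1 of DIOLs.S, 31.5 and 30.1 TPM on day 3, 25.9 and 29.9 TPM on day 5, 40.0 and 22.3 TPM on day 7, and 1.07 and 0.330 TPM on day 14. The drop by day 14 over day 7 was a log2 of -4.22 (SE 0.38, adjusted p = 1.0e-08). The summed granulosa markers fell beside it, to 74.1 and 107 TPM on day 14, against 592 and 2420 TPM on day 7. In DIOLs Npr2 was at 30.9 TPM in both libraries on day 5, 3.48 and 4.59 TPM on day 10, 0.590 and 1.56 TPM on day 15, and 0.180 and 1.07 TPM on day 25. The step of day 10 over day 5 was a log2 of -2.67 (SE 0.38, adjusted p = 9.7e-06). At that step the granulosa sums overlapped, at 238 and 153 TPM on day 10 and 235 and 225 TPM on day 5, and were 42.4 and 48.8 TPM by day 25. Several members of that list were near 0 in DIOLs, so the sum rests on other members. Amhr2 averaged 0.63 TPM on day 5 and 0.12 TPM on day 10, and Inha 2.89 and 0.26 TPM. Hsd3b1 and Fshr were at 0 on both days. Markers of other lists fell with Npr2. Stromal and endothelial markers, 9 of 12 in the table, summed to 11.6 and 16.3 TPM on day 10 and 377 and 376 TPM on day 5. Macrophage markers summed to 64.0 and 61.5 TPM on day 10 and 633 and 655 TPM on day 5. Their part in the fall of Npr2 was not tested. The change of Npr2 at day 15 over day 10 (-1.31, adjusted p = 0.022) was lost without either library of day 10 or the first of day 15 (adjusted p 0.060 to 0.23). Adcy3 fell by 4.29 on the log2 scale on day 14 over day 1 of DIOLs.S (SE 0.40, adjusted p = 7.3e-09), with 0.320 TPM and a listed 0 on day 14 and 22.8 and 20.1 TPM on day 1.

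**Figure D3:**
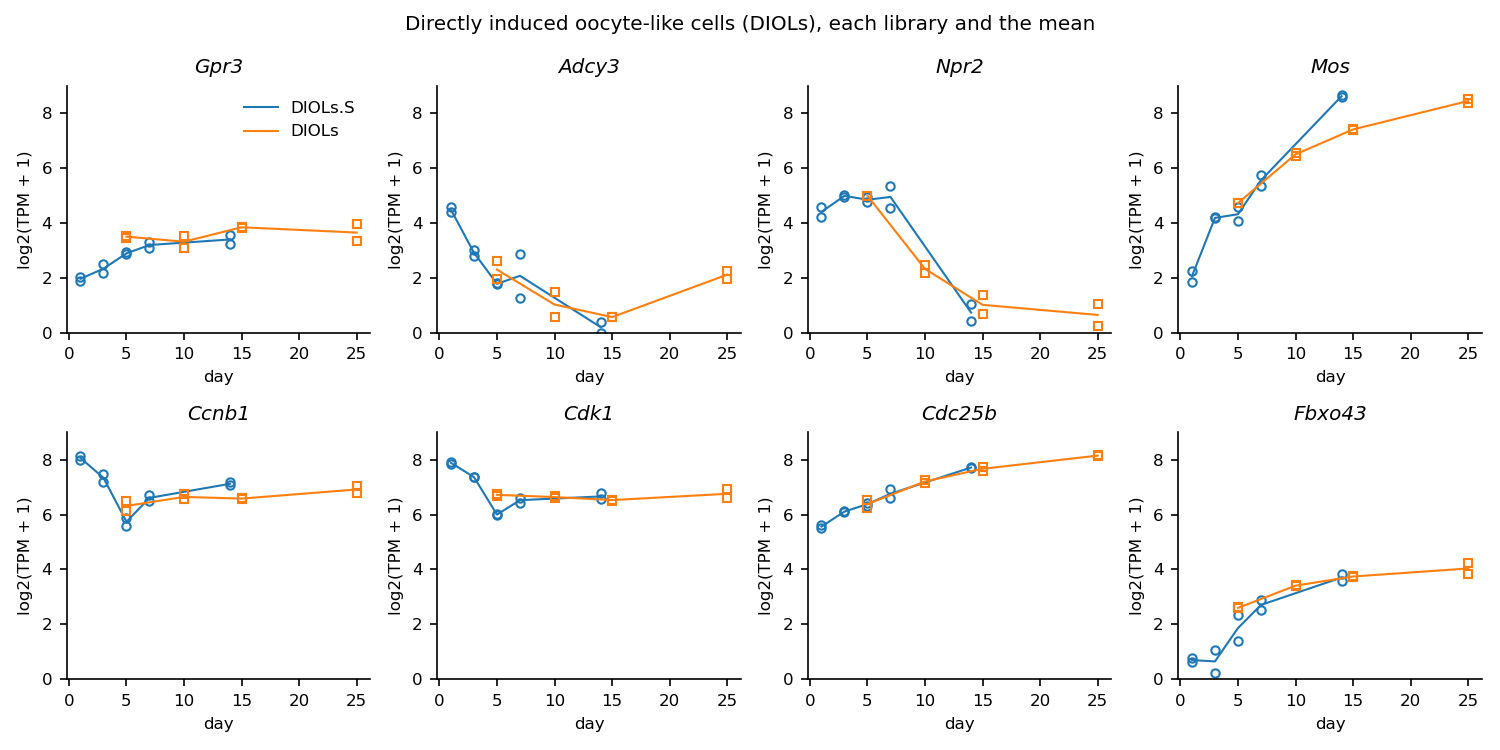
Level of each of the 8 genes as log2(TPM + 1) by day in DIOLs.S (blue circles) and DIOLs (orange squares), with points for libraries and lines through the means. Mos climbs to 404 and 385 TPM on day 14 of DIOLs.S, Npr2 falls to 1.07 and 0.330 TPM, and Cdk1 stays between 62.4 and 121 TPM from day 5 on.

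Of the cyclic AMP genes beside these, listed with their regulators and anchors, 7 of 11 were in the table. None was called in wild type of day 13 over day 11. Gnas, the stimulatory G protein subunit through which Gpr3 acts, was lower in the Dynll1 knockout (52.6 ± 1.82 TPM, against 417 ± 7.36 TPM in wild type; SD, n = 2 each; log2 change -2.96, adjusted p = 9.2e-19, limma) and in the Nobox knockout (131 ± 0.134 TPM, -1.66, adjusted p = 2.0e-13). Gnas was higher in DIOLs.S of day 14, at 1290 ± 40.2 TPM, than in incomp-GV oocytes, at 241 ± 3.61 TPM (log2 change 2.42, adjusted p = 1.7e-14). The anchoring protein gene Akap1 went the other way in that comparison, at 58.4 ± 2.40 TPM in DIOLs.S and 497 ± 20.1 TPM in incomp-GV oocytes (-3.07, adjusted p = 3.7e-15). Of the cyclic GMP and follicle signalling genes 10 of 14 were in the table. In wild type of day 13 over day 11, 3 of the 8 tested fell and none rose, where 16.5% of all genes were called lower and 5.5% higher (median log2 change -0.99, all genes -0.24). Among them were Nppc, the ligand of Npr2, at 2.24 ± 2.79 TPM on day 13 and 19.0 ± 9.81 TPM on day 11 (log2 change -2.87, adjusted p = 0.00083), and Npr1, a related natriuretic peptide receptor, at 2.06 ± 1.03 TPM on day 13 and 38.8 ± 15.5 TPM on day 11 (-3.68, adjusted p = 6.9e-08).

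Cdk1 and Ccnb1 encode the kinase and the cyclin B1 subunit that drive entry into meiotic metaphase. Within the in vitro and GV oocytes Cdk1 (chromosome 10, 69335146 to 69352938, minus strand) was among the flattest of the 8. It stood at 115 and 110 TPM in wild type of day 13, 118 and 80.2 TPM in wild type of day 11, 112, 106 and 113 TPM in comp-GV oocytes and 106, 108 and 115 TPM in incomp-GV oocytes. In 18 of 19 knockouts it was not called, and wild type of day 13 and incomp-GV oocytes differed by a log2 of 0.04 (SE 0.13, adjusted p = 0.88). The exception was the Sohlh1 knockout, at 45.7 and 53.5 TPM (log2 change -1.17, SE 0.12, adjusted p = 7.0e-09). In the Nobox knockout it was at 57.0 and 62.7 TPM, a log2 change of -0.90 (adjusted p = 5.1e-07) that did not reach the fold threshold and reached -1.48 when libraries were rescaled by the median of ratios. In the Dynll1 knockout that rescaling gave -1.14 in place of -0.50.

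The one set in which Cdk1 was nearly absent was the matured DIOLs, where a shorter polyA tail and less RNA cannot be told apart. Of the oocyte markers Zp3, Padi6 and Ddx4 averaged 258, 12.2 and 154 TPM there. In DIOLs of day 25 they averaged 15900, 27900 and 218 TPM. The 7 markers of that list summed to 19000 to 19400 TPM in MII DIOL and 58200 to 58300 TPM in DIOLs of day 25. The sum in MII DIOL thus came mostly from members other than these. Cdk1 had 1.90 and 3.77 TPM in MII DIOL, against 95.9 and 121 TPM in DIOLs of day 25 and 106 to 113 TPM in comp-GV oocytes. The log2 change was -4.87 over DIOLs of day 25 (SE 0.15, adjusted p = 7.1e-17) and -4.90 over comp-GV oocytes (SE 0.14, adjusted p = 1.7e-17). Cdc25b and Ccnb1 in the same libraries went opposite ways, as given next.

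Ccnb1 (chromosome 13, 100778650 to 100786570, minus strand) shares 27.8% of its transcript sequence with other annotated genes, among them the pseudogenes Ccnb1-ps, Gm12856 and Gm8416, so its level is uncertain. It had 1437 and 1499 TPM in MII DIOL, against 131 and 111 TPM in DIOLs of day 25 and 243, 249 and 251 TPM in comp-GV oocytes. The log2 change was 3.6 over DIOLs of day 25 (SE 0.12, adjusted p = 2.6e-16) and 2.56 over comp-GV oocytes (SE 0.11, adjusted p = 1.8e-14). Every comp-GV library stood above the incomp-GV oocytes, which had 174, 175 and 169 TPM (log2 change 0.52, SE 0.099, adjusted p = 0.00025, under the fold threshold). Wild type of day 13 was lower, at 37.6 and 44.6 TPM, than incomp-GV oocytes (log2 change -2.05, SE 0.23, adjusted p = 3.3e-10). DIOLs.S of day 14 had 145 and 133 TPM and were higher than wild type of day 13 (log2 change 1.74, SE 0.25, adjusted p = 2.6e-07).

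In the knockouts Ccnb1 was lower in 2, those of Nobox (6.60 and 5.26 TPM, log2 change -2.61, SE 0.30, adjusted p = 5.8e-08) and Sohlh1 (6.45 and 5.54 TPM, -2.59, SE 0.30, adjusted p = 6.9e-08), against 37.6 and 44.6 TPM in wild type. The wild-type libraries of day 11 lay far apart, at 9.23 and 29.4 TPM. Without replicate 1 of that group the rise of Ccnb1 in wild type of day 13 over day 11 (log2 1.25, SE 0.30, adjusted p = 0.0017) was 0.47 (adjusted p = 0.18), and without replicate 2 it was 2.04. The call in the Figla knockout (33.1 and 36.5 TPM, log2 change 1.02, adjusted p = 0.0074) was lost without replicate 1 of wild type (0.24, adjusted p = 0.52), without replicate 2 of the knockout (0.95, adjusted p = 0.048) and under rescaling by the median of ratios (0.76). Without replicate 2 of wild type it was 1.81, and without that library Ccnb1 was also called in the Stat3 (1.67, against 0.88 with all libraries) and Sub1 (1.26, against 0.47) knockouts. The Stat3 call also came without replicate 2 of that knockout (1.02).

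Day 1 of DIOLs.S had the highest mean of Cdk1 over all groups, and of Ccnb1 over all but MII DIOL. Ccnb1 was at 256 and 281 TPM on day 1, 179 and 146 TPM on day 3, 58.1 and 47.5 TPM on day 5, 90.2 and 104 TPM on day 7 and 145 and 133 TPM on day 14. Cdk1 was at 244 and 230 TPM on day 1, 166 and 163 TPM on day 3, 62.4 and 64.0 TPM on day 5, 85.5 and 97.7 TPM on day 7 and 109 and 93.1 TPM on day 14. Both fell at day 5 over day 3, with log2 changes of -1.6 for Ccnb1 (SE 0.12, adjusted p = 2.2e-08) and -1.37 for Cdk1 (SE 0.15, adjusted p = 2.1e-06). Markers of dividing cells, of which 10 of 12 were in the table, summed to 1980 to 2170 TPM on day 1, 893 to 942 TPM on day 3, 673 to 680 TPM on day 5 and 1000 TPM in both libraries of day 14, and stem cell markers to 293 and 294 TPM on day 1. Of the dividing cell markers Top2a fell throughout. It averaged 540 TPM on day 1, 168 TPM on day 3 and 106 TPM on day 5. On days 7 and 14 it averaged 56.1 and 6.29 TPM, so the sum of day 14 rests on other members. The part of cells with these markers in the levels of Ccnb1 and Cdk1 was not tested. Cdk1 on day 14 over day 1 was called lower (log2 change -1.23, adjusted p = 3.5e-07), and after rescaling by the median of ratios the change was -0.91. Ccnb1 over those days was -0.94, and it was called without replicate 1 of day 1 (-1.01) or of day 14 (-1.0). At day 7 over day 5 it was 0.87, and 1.01 and called without replicate 1 of day 5.

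Cdc25b encodes the phosphatase that removes the inhibitory phosphates from Cdk1 at the resumption of meiosis in mouse oocytes, and lies on chromosome 2 (131186949 to 131198497, plus strand). In wild type it had 138 and 153 TPM on day 13 and 36.0 and 45.8 TPM on day 11, a log2 change of 1.81 (SE 0.36, adjusted p = 0.00022; 0.067 with a pseudocount of 0.1). Cdc25b was lower in all 4 knockouts of day 11, with log2 changes of -2.28 to -1.52, with 11.8 and 15.5 TPM in the Figla, 6.42 and 8.90 TPM in the Lhx8, 9.04 and 8.73 TPM in the Stat3 and 6.54 and 15.6 TPM in the Sub1 knockout. No library of these knockouts reached a wild-type value. With a pseudocount of 0.1 the adjusted p in the Figla knockout was 0.11. On day 13 it was lower in 4 of 15 knockouts: Sohlh1 (3.13 TPM and a listed 0, adjusted p = 1.6e-13), Nobox (15.9 and 18.5 TPM, log2 change -3.01, adjusted p = 8.9e-08), Dynll1 (31.1 and 39.2 TPM, -2.02, adjusted p = 2.4e-05) and Tbpl2 (38.3 and 51.1 TPM, -1.69, adjusted p = 0.00036; 0.079 with a pseudocount of 0.1). The change in the Sohlh1 knockout was -5.14 without its second library, which was listed at 0. In the Ybx3 knockout it had 74.6 and 71.3 TPM, a log2 change of -0.98 that fell just under the threshold and was -1.32 after rescaling by the median of ratios. In the other 10 day 13 knockouts it ranged from 113 to 169 TPM.

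In DIOLs.S Cdc25b averaged 46.4 TPM on day 1, 68.2 TPM on day 3, 82.8 TPM on day 5, 108 TPM on day 7 and 210 TPM on day 14, and in DIOLs 83.1 TPM on day 5, 148 TPM on day 10, 204 TPM on day 15 and 284 TPM on day 25. No step between consecutive days was called, although day 14 over day 7 (0.96) was called without replicate 2 of day 7 (1.12) and after rescaling by the median of ratios (1.45), as was day 10 over day 5 after that rescaling (0.82 before, 1.12 after), while day 14 over day 1 (log2 change 2.16, SE 0.13, adjusted p = 6.7e-12) and day 25 over day 5 (1.77, SE 0.13, adjusted p = 3.0e-10) were. DIOLs of day 25, at 282 and 287 TPM, were above incomp-GV oocytes, at 145, 139 and 123 TPM (log2 change 1.07, SE 0.12, adjusted p = 1.6e-07). That change is just past the fold threshold, and without replicate 3 of the incomp-GV oocytes it was 1.00 and no longer called. In MII DIOL Cdc25b had 12.2 and 8.76 TPM, a log2 change of -4.65 over DIOLs of day 25 (SE 0.13, adjusted p = 1.2e-17) and -3.43 over comp-GV oocytes, which had 129, 117 and 118 TPM (SE 0.12, adjusted p = 3.7e-16).

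Of 18 further genes of Cdk1 control 9 were in the table, and in MII DIOL over DIOLs of day 25, 4 rose and 2 fell, where 57.6% of all genes were called (median log2 change 0.10, all genes -0.39). Mastl, the kinase that restrains the phosphatase opposing Cdk1, averaged 294 ± 0.0 TPM in MII DIOL and 18.6 ± 1.85 TPM in DIOLs of day 25 (SD, n = 2 each; log2 change 3.91, adjusted p = 4.1e-17, limma). Ccna2, cyclin A2, averaged 709 ± 7.32 TPM in MII DIOL and 81.6 ± 2.82 TPM in DIOLs of day 25 (3.10, adjusted p = 6.3e-14). Lower were Ensa, a target of Mastl, at 4.24 ± 1.49 TPM in MII DIOL and 66.4 ± 1.28 TPM in DIOLs of day 25 (-3.72, adjusted p = 2.8e-16), and the phosphatase gene Cdc25c, at 0.985 ± 0.0778 TPM in MII DIOL and 19.2 ± 2.68 TPM in DIOLs of day 25 (-3.34, adjusted p = 1.4e-12). Against comp-GV oocytes, where 50.2% of all genes were called, 3 rose and 2 fell (median -0.17, all genes -0.13), with Cks1b, a small Cdk-binding protein gene, at 817 ± 15.6 TPM in MII DIOL and 143 ± 5.80 TPM in comp-GV oocytes (n = 2 and 3; 2.51, adjusted p = 2.5e-17). Among the largest changes of this list in the knockouts was Ensa, higher in those of Dynll1, Nobox, Sohlh1, Tbpl2 and Ybx3, by a log2 of 1.04 to 1.93.

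Mos encodes the oocyte kinase that starts the MAP kinase cascade of cytostatic factor, and lies on chromosome 4 (3870657 to 3872105, minus strand). It had the widest span of the 8, listed at 0 in both libraries of the Sohlh1 knockout and at 2359 and 2395 TPM in MII DIOL. Below MII DIOL came comp-GV oocytes with 1390, 1314 and 1253 TPM, incomp-GV oocytes with 1180, 1138 and 1085 TPM, DIOLs.S of day 14 with 404 and 385 TPM and DIOLs of day 25 with 336 and 364 TPM, with no overlap between these 5. Wild-type in vitro oocytes had 159 and 151 TPM on day 13 and 26.9 and 9.65 TPM on day 11. The log2 change of day 13 over day 11 was 3.18 (SE 0.51, adjusted p = 1.5e-05), and it was 2.49 without replicate 2 of day 11 and 3.87 without replicate 1.

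Mos climbed at most steps of the DIOL courses. In DIOLs.S it had 2.63 and 3.75 TPM on day 1, 17.4 and 16.9 TPM on day 3, 22.8 and 15.8 TPM on day 5, 39.8 and 53.5 TPM on day 7 and 404 and 385 TPM on day 14. Day 3 over day 1 (log2 2.13, adjusted p = 2.2e-10), day 7 over day 5 (1.24, adjusted p = 3.2e-06) and day 14 over day 7 (3.07, adjusted p = 1.1e-12) were called, each with an SE of 0.14, and day 5 over day 3 was not (0.13, adjusted p = 0.52). Day 7 over day 5 was 0.99 without replicate 2 of day 5. In DIOLs it had 25.3 and 25.7 TPM on day 5, 86.2 and 93.6 TPM on day 10, 172 and 167 TPM on day 15 and 336 and 364 TPM on day 25, and day 25 over day 5 was a log2 of 3.72 (SE 0.14, adjusted p = 2.8e-14). The last step, day 25 over day 15, was 1.04 (adjusted p = 2.1e-05), 0.98 without replicate 2 of day 25, and at an adjusted p of 0.080 in 1 fit over all samples. Both late DIOL sets remained below incomp-GV oocytes, with log2 changes of -1.52 in DIOLs.S of day 14 (SE 0.13, adjusted p = 2.5e-09) and -1.69 in DIOLs of day 25 (SE 0.13, adjusted p = 8.2e-10), as did wild type of day 13 (log2 change -2.86, SE 0.38, adjusted p = 1.6e-08). DIOLs.S of day 14 were above wild type of day 13 by a log2 of 1.34 (SE 0.41, adjusted p = 0.0082), with an adjusted p of 0.24 at a pseudocount of 0.1. In MII DIOL the change over DIOLs of day 25 was 2.76 (SE 0.14, adjusted p = 2.0e-13). Over comp-GV oocytes it was 0.85 (SE 0.13, adjusted p = 5.0e-06), which did not reach the fold threshold, and 1.74 after rescaling by the median of ratios, under which it was called.

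In the knockouts Mos was near 0 wherever it was most reduced. On day 13 it had 0 and 0.110 TPM in the Nobox knockout (adjusted p = 5.8e-12), 0 and 0.940 TPM in the Dynll1 knockout (adjusted p = 1.1e-11) and 0 in both Sohlh1 knockout libraries (adjusted p = 5.5e-12), against 159 and 151 TPM in wild type. It had 22.1 and 20.1 TPM in the Tbpl2 knockout (log2 change -2.82, SE 0.51, adjusted p = 5.2e-05). In the libraries labelled Ccnk knockout it had 42.2 and 41.9 TPM (-1.86, SE 0.51, adjusted p = 0.012), a call lost without any 1 of the 4 libraries (adjusted p 0.060 to 0.072) and at a pseudocount of 0.1 (0.25). In the other 10 day 13 knockouts no change was called, and levels ran from 79.3 TPM in 1 Ybx3 knockout library to 242 TPM in 1 Hes6 knockout library. The oocyte markers summed to 1100 to 1600 TPM in the Sohlh1, 2290 to 2340 TPM in the Nobox, 881 to 897 TPM in the Dynll1 and 10700 to 10800 TPM in the Tbpl2 knockout, against 57000 to 58300 TPM in wild type of day 13, and their part in the changes of Mos and Cdc25b was not tested. Of that list Ddx4 averaged 241 TPM in the Sohlh1, 260 TPM in the Nobox and 341 TPM in the Tbpl2 knockout. It averaged 613 TPM in the Dynll1 knockout and 397 TPM in wild type of day 13.

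On day 11 Mos was lower in all 4 knockouts, with 0 and 2.30 TPM in the Figla, 2.24 and 1.07 TPM in the Lhx8, 0.920 and 1.06 TPM in the Stat3 and 0.350 and 6.48 TPM in the Sub1 knockout. No knockout library reached the lower wild-type library, at 9.65 TPM. The log2 changes were -3.25, -2.73, -3.12 and -2.44 in that order of knockouts, each with an SE of 0.51 and an adjusted p of 0.00035 or less. They depended on single libraries in size but not in call: without replicate 1 of wild type they were -2.55, -2.04, -2.42 and -1.74, and without replicate 2 of wild type -3.94, -3.43, -3.81 and -3.13. Without replicate 1 of the Sub1 knockout the change was -1.20 (adjusted p = 0.046) and without its replicate 2 it was -3.67; the Figla knockout gave -2.38 without replicate 1 and -4.11 without replicate 2. The oocyte marker sum was 421 to 815 TPM over these 4 knockouts and 8040 to 8320 TPM in wild type of day 11. Members of that list differed in direction. Zp3 averaged 1.51 to 55.4 TPM and Padi6 29.4 to 197 TPM in these knockouts, against 1890 and 4190 TPM in wild type. Ddx4 averaged 362 to 523 TPM in the knockouts, against 210 TPM in wild type. The part of oocyte number in the changes of Mos was not tested.

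Of 8 further genes of the MAP kinase arm 3 were in the table, and all 3 were lower in MII DIOL than in DIOLs of day 25, where 37.8% of all genes were called lower (median log2 change -2.64, all genes -0.39). They included Map2k2, a MAP kinase kinase, at 8.40 ± 2.16 TPM in MII DIOL and 127 ± 1.32 TPM in DIOLs of day 25 (log2 change -3.79, adjusted p = 9.4e-18, limma), and the spindle checkpoint kinase Bub1, at 9.18 ± 4.74 TPM in MII DIOL and 58.9 ± 3.87 TPM in DIOLs of day 25 (-2.64, adjusted p = 5.5e-11). In the same comparison Mos itself rose by the 2.76 given above.

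Fbxo43 encodes Emi2, the inhibitor that keeps the anaphase-promoting complex (APC/C) off cyclin B at MII, and lies on chromosome 15 (36150060 to 36164884, minus strand). It had 421 and 393 TPM in MII DIOL, against 17.8 and 13.3 TPM in DIOLs of day 25 and 87.0, 89.0 and 88.0 TPM in comp-GV oocytes. The log2 change was 4.64 over DIOLs of day 25 (SE 0.25, adjusted p = 4.6e-13) and 2.20 over comp-GV oocytes (SE 0.23, adjusted p = 2.2e-08). Incomp-GV oocytes had 56.8, 55.2 and 50.2 TPM, all below comp-GV oocytes (log2 change 0.69, SE 0.20, adjusted p = 0.0091, under the fold threshold). All 3 culture-grown late sets were lower than incomp-GV oocytes: DIOLs.S of day 14, at 13.4 and 10.8 TPM, with a log2 change of -2.08 (SE 0.23, adjusted p = 1.1e-07), DIOLs of day 25 with -1.74 (SE 0.23, adjusted p = 1.5e-06) and wild type of day 13, at 12.9 and 12.55 TPM, with -2.0 (SE 0.22, adjusted p = 1.7e-10). In no knockout was Fbxo43 called, with log2 changes from -0.88 in the Stat3 to 0.74 in the Figla knockout. After rescaling by the median of ratios it was called lower in the Stat3 (-1.01) and Dynll1 (-1.11) knockouts. The Stat3 call also came without replicate 1 of the knockout or replicate 2 of wild type (-1.04 each), and without replicate 1 of the Figla knockout Fbxo43 was called higher there (1.00). The Nobox knockout had 13.7 and 16.8 TPM and the Sohlh1 knockout 8.82 and 13.6 TPM, beside 12.9 and 12.55 TPM in wild type, in libraries where Mos was 0 or near it. In DIOLs.S Fbxo43 had 0.540 and 0.700 TPM on day 1, and day 14 over day 1 was a log2 of 3.01 (SE 0.25, adjusted p = 9.3e-10). The step of day 5 over day 3 (1.22, adjusted p = 0.0011, means of 2.83 TPM on day 5 and 0.625 TPM on day 3) was 0.81 without replicate 2 of day 3 and 0.74 without replicate 1 of day 5. Day 7 over day 5 (0.85) was called without replicate 1 of day 5 (1.32) or of day 7 (1.03), and day 14 over day 7 (1.00 after rounding, under the threshold) without replicate 2 of day 14 (1.14) or of day 7 (1.18).

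Of 22 genes of the APC/C and its inhibitors 18 were in the table. In MII DIOL over DIOLs of day 25, 4 rose and 7 fell, a share near that of all genes, of which 19.8% rose and 37.8% fell (median log2 change -0.48, all genes -0.39). Bub1b, a checkpoint inhibitor of the APC/C, averaged 1910 ± 6.20 TPM in MII DIOL and 90.5 ± 0.948 TPM in DIOLs of day 25 (log2 change 4.39, adjusted p = 3.8e-19, limma), and Cdc27, a subunit of the complex, 325 ± 4.88 TPM in MII DIOL and 17.8 ± 1.79 TPM in DIOLs of day 25 (4.12, adjusted p = 1.5e-16). Fzr1, the APC/C activator that helps keep GV oocytes arrested by destroying cyclin B1, averaged 15.8 ± 1.20 TPM in MII DIOL and 462 ± 13.3 TPM in DIOLs of day 25 (-4.79, adjusted p = 8.7e-21). Fbxo5, the gene of Emi1 and the close relative of Fbxo43, averaged 5.10 ± 3.28 TPM in MII DIOL and 133 ± 5.33 TPM in DIOLs of day 25 (-4.56, adjusted p = 5.9e-14), opposite in direction to Fbxo43. Against comp-GV oocytes 3 rose and 9 fell, where 18.3% of all genes rose and 31.9% fell (median -0.99, all genes -0.13). In the knockouts Cdc20, the activator used at the metaphase exit, was higher in those of Lhx8, Stat3, Sub1, Dynll1, Nobox, Sohlh1, Tbpl2 and Ybx3 and in the libraries labelled Ccnk knockout, by a log2 of 1.27 to 3.19, and Ube2c, the ubiquitin-conjugating enzyme of the complex, was lower in those of Figla, Lhx8, Stat3, Sub1, Dynll1, Nobox and Sohlh1, with log2 changes of -2.53 to -1.52.

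**Figure D4:**
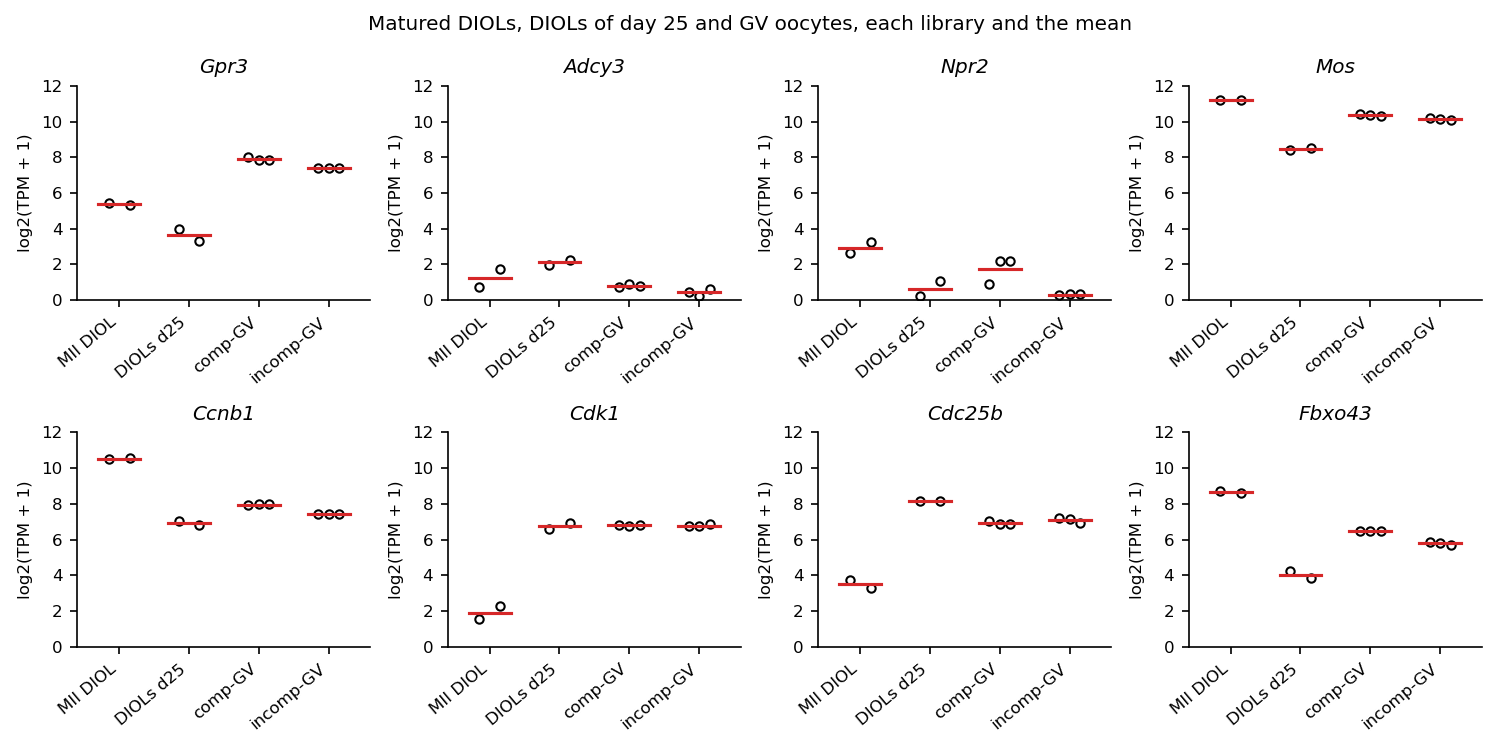
Level of each of the 8 genes as log2(TPM + 1) in MII DIOL (n = 2), DIOLs of day 25 (n = 2), comp-GV (n = 3) and incomp-GV oocytes (n = 3), with open points for libraries and red lines for means. Mos, Ccnb1 and Fbxo43 are highest in MII DIOL, at 2359, 1437 and 393 TPM or more, while Cdk1 and Cdc25b are lowest there, at 3.77 and 12.2 TPM or less.

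Of the 8 genes in matured DIOLs, 5 were called higher and 2 lower than in DIOLs of day 25, against 57.6% of all genes, with 19.8% higher and 37.8% lower. Over comp-GV oocytes 3 were higher and 3 lower, where 50.2% were called, 18.3% higher and 31.9% lower. After rescaling by the median of ratios more genes were higher than lower in both, 3557 and 3281 over DIOLs of day 25 (2298 and 4391 before) and 3711 and 2782 over comp-GV oocytes (2119 and 3702 before). Adcy3 over DIOLs of day 25 (log2 change -0.87) was called only without replicate 2 of MII DIOL (-1.39). The granulosa marker sum was 503 and 947 TPM in MII DIOL, 42.4 and 48.8 TPM in DIOLs of day 25 and 126 to 225 TPM in comp-GV oocytes, and Npr2 was higher in MII DIOL than in both (5.15 and 8.53 TPM, against 0.180 and 1.07 TPM in DIOLs of day 25; log2 change 2.29, SE 0.38, adjusted p = 1.8e-05). The part of somatic cells in that rise was not tested. Over comp-GV oocytes the change of Npr2 was 1.19 (adjusted p = 0.0050), and it was 0.87 without replicate 2 of MII DIOL and 0.76 without replicate 1 of comp-GV. For DIOLs.S of day 14 over incomp-GV oocytes 3 of the 8 were called, all lower (31.1% of all genes, 10.9% higher and 20.2% lower; 1268 genes higher and 2340 lower, and 1650 and 1885 after that rescaling). For DIOLs of day 25 over incomp-GV 2 were higher and 3 lower (26.3%, 12.8% higher and 13.5% lower), and for wild type of day 13 over incomp-GV 4 were lower (33.5%, 18.4% higher and 15.2% lower; 2329 genes higher and 1925 lower, and 1970 and 2420 after rescaling). Mos, Gpr3 and Fbxo43 were lower in all 3 of these comparisons, which share the incomp-GV libraries. Between DIOLs.S of day 14 and wild type of day 13, 2 were higher, Mos and Ccnb1 (19.4%, 4.7% higher and 14.7% lower; 597 genes higher and 1871 lower, and 1196 and 997 after rescaling). Between DIOLs.S and DIOLs of day 5 none was called (11.9%), with log2 changes of -0.72 for Cdk1 and -0.74 for Fbxo43, the second of which was -1.21 and called without replicate 1 of DIOLs.S.

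In the DIOL courses 7 of the 8 were called in DIOLs.S of day 14 over day 1 (4 higher and 3 lower, against 53.3% of all genes, with 16.8% higher and 36.5% lower) and 4 in DIOLs of day 25 over day 5 (3 higher and 1 lower, where 44.3% were called, 10.9% higher and 33.4% lower, or 1269 and 3875 genes, and 1847 and 2676 after rescaling). Between consecutive days of DIOLs.S the calls were 2 for day 3 over day 1 (20.9%), 4 for day 5 over day 3 (7.95%), 1 for day 7 over day 5 (8.06%) and 3 for day 14 over day 7 (40.5%). In DIOLs they were 3 for day 10 over day 5 (23.1%), 1 for day 15 over day 10 (3.64%) and 2 for day 25 over day 15 (7.57%). Adcy3 made up several of these and was the least stable. Its changes at day 3 over day 1 (log2 -1.57, adjusted p = 0.0031, 0.069 with a pseudocount of 0.1) and day 5 over day 3 (-1.14, adjusted p = 0.041, 0.091 to 0.18 without any 1 of the 4 libraries) of DIOLs.S rest on levels of 2.38 to 22.8 TPM. At day 14 over day 7 the change was -1.87, and it was -1.07 without replicate 1 of day 7 and -2.68 without replicate 2. Day 7 over day 5 (0.29) was called without replicate 2 of day 7 (1.10). At day 10 over day 5 of DIOLs (-1.28, adjusted p = 0.012) the call was lost without replicate 2 of either day, with log2 changes of -0.82 and -0.94. At day 25 over day 15 it was higher (1.55, adjusted p = 0.0069; 0.058 without replicate 2 of day 25), with 2.90 and 3.80 TPM on day 25, above incomp-GV oocytes (log2 change 1.68, SE 0.37, adjusted p = 0.00057).

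Between comp-GV and incomp-GV oocytes 1 of the 8 was called (9.96% of all genes). Npr2 had 0.870, 3.5 and 3.53 TPM in comp-GV oocytes and 0.200, 0.270 and 0.260 TPM in incomp-GV oocytes, a log2 change of 1.44 (SE 0.31, adjusted p = 0.00092). Its levels there were near the filter of 1 TPM, and the granulosa marker sum ran from 126 to 225 TPM in comp-GV and 148 to 150 TPM in incomp-GV oocytes. Gpr3 (log2 change 0.49), Ccnb1 (0.52) and Fbxo43 (0.69) were all higher in every comp-GV library but under the fold threshold. Of the APC/C genes 2 were higher, Bub1b at 1170 ± 38.6 TPM in comp-GV and 497 ± 17.3 TPM in incomp-GV oocytes (SD, n = 3 each; 1.23, adjusted p = 1.3e-10, limma) and Cdc27 at 60.5 ± 9.51 TPM in comp-GV and 29.3 ± 2.43 TPM in incomp-GV oocytes (1.01, adjusted p = 2.7e-07).

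Over the means of all 33 groups, as a description that shares libraries and day, Mos and Gpr3 had a Pearson r of 0.81 on the log2 scale, Adcy3 and Npr2 one of 0.80, and Mos and Adcy3 one of -0.85. Among 9290 other genes with a mean of at least 10 TPM in some group, the most alike in pattern were Zfp957 (r = 0.982), Ccdc69 (0.975) and Accsl (0.965) for Mos, Tle6 (0.959), Gng3 (0.944) and Fam132b (0.943) for Cdc25b, and Ifnar2 (0.966), Fkbp10 (0.960) and Cercam (0.959) for Npr2. For Fbxo43 they were Mknk1 (0.926), Rnf34 (0.916) and Tpd52l2 (0.909), for Adcy3 Zfp462 (0.932), Ptp4a3 (0.928) and Dtx4 (0.922), and for Ccnb1 Abcb1b (0.904), Pdlim1 (0.884) and Sall4 (0.858). Gpr3 was most like Slc45a3 (0.898), Dcaf8 (0.892) and Rnf114 (0.890), and Cdk1 most like Chaf1b (0.899), Aarsd1 (0.898) and Psmb7 (0.890).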

How the data were processed

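Expression was used as TPM, which the authors deposited with 1 value per gene symbol and library. The submitters' processing notes name STAR 2.6.0, featureCounts 1.6.0 and the mm10 build; the strand setting and the treatment of reads that fit several places are not given in the sources used here. TPM records no depth, so no counting error can be given. Of 15163 rows, 1 incomplete row and 22 with date-like names were dropped, which left 15140 genes that took a share of 0.521 to 0.708 of a library's TPM. A further 80 columns of no sample were not used, and 3 of the 71 samples, oocytes labelled Pr-fol-P3, matched no column by name and were not analysed here, which left 68 libraries in 33 groups. GV columns were assigned through the stage they carry.

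Changes in log2(TPM + 1) were tested with limma 3.58.1 in R 4.3.3 (trend and robust options), in 1 fit of the in vitro oocytes (42 libraries, 21 residual degrees of freedom, 12306 genes) and 1 of DIOLs and GV oocytes (26 libraries, 14 residual degrees of freedom, 11603 genes). Comparisons across the 2 used a fit of all libraries (12689 genes, 35 residual degrees of freedom). A gene entered a fit with 1 TPM or more in 2 or more of its libraries, and Benjamini-Hochberg adjustment ran separately in each of 37 comparisons. The median change of all genes was between -0.51 and 0.69 (log2), with the lowest at DIOLs.S day 14 over day 7 and the highest in the Dynll1 knockout; relative to the median of its own comparison every called change of the 8 genes had the same sign, while 3 fell under the fold threshold (Ccnb1 in the Figla knockout, 0.82; Adcy3 at DIOLs day 10 over day 5, -0.93; Cdk1 at DIOLs.S day 14 over day 1, -0.78). The steps were tested on simulated data. Named beside the 8 genes are, per pathway list and comparison, up to 2 called genes in each direction with the largest change, the 3 most alike genes and markers. Cd164l2, Cenpo and the genes named for frequent calls over knockouts were picked after their values were seen. The 8 genes and all lists were chosen with earlier results of these data known. Replicate numbers are shared between groups but do not pair the libraries. Shared sequence is the percent of a gene's 31-base stretches found in transcripts of another gene of GENCODE M21 (GRCm38), from which positions were taken.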

Additional observations from a re-analysis of the deposited data

How the results depend on the processing

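Results were recomputed with 0.1 as the pseudocount, without the filter, with a replicate block, after rescaling by the median of ratios, in a single fit of all libraries, with single libraries left out and, in vitro, without the pair of Sohlh1 knockout libraries. No called value changed sign under any of them. Of 296 values of the 8 genes over 37 comparisons, rescaling by the median of ratios added 15 calls and lost 5, a pseudocount of 0.1 added 4 and lost 8, and no filter lost 1. The fit over all samples added 1 call and lost 3 over 280 values. Leaving out the Sohlh1 knockout added 2 calls over 168 values. Leaving out 1 library added 19 calls and lost 38 of 1232 values. In wild type of day 13 over day 11 the number of calls ran from 3 to 4 with 1 of its 4 libraries left out, against 5 with all, and the 3 came without replicate 1 of day 11. The numbers do not pair the libraries, whose deviations correlated by -0.15 to 0.083 between same-numbered libraries. With the replicate block 1 call was lost over the 296 values, that of Adcy3 at DIOLs.S day 5 over day 3 (adjusted p = 0.057, limma). With the numbers of DIOLs.S day 7 crossed, chosen after seeing the data, 0 of 120 values, called or not, changed in call. Most groups hold 2 libraries, and levels near 1 TPM, as of Npr2 and Adcy3 in late oocytes, are the least precise here. Counts over all genes moved by over 1.5 times mostly in knockouts with few calls: without the Sohlh1 libraries 93 genes were called in the Ell3 knockout (14 with them), 175 in the Hes6 (73), 317 in the Mef2b (133), 482 in the Foxr1 (231) and 132 in the Tcf25 knockout (62). Rescaling by the median of ratios moved the median of all genes by -0.47 (log2) in the Dynll1 knockout to 0.39 in MII DIOL over DIOLs of day 25.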
